A study of Homo sapiens with 15 samples.

Results

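The collagen system is described here as 59 genes chosen by name: every protein-coding gene named as a collagen chain (44 genes) and 15 genes for collagen-modifying enzymes, a chaperone, processing proteins and SPARC. Of these, 50 reached a mean of 1 count per library over the 15 libraries (35 chains and all 15 others) and are among the 23184 genes tested. The 9 chains below this level, with 0 to 8 counts over all libraries together, were COL10A1, COL19A1, COL20A1, COL22A1, COL23A1, COL25A1, COL28A1, COL6A5 and COL9A1.

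Collagens are the main structural proteins of the extracellular matrix. Each collagen molecule is a triple helix of 3 chains, and each chain is encoded by its own gene. In the endoplasmic reticulum, prolyl hydroxylases (P4HA1, P4HA2, P4HA3) stabilize the helix, lysyl hydroxylases (PLOD1, PLOD2, PLOD3) prepare it for crosslinking, and the chaperone SERPINH1 (HSP47) holds it until export. After secretion, BMP1 and its enhancer PCOLCE cut the propeptides from fibrillar procollagen, and lysyl oxidases (LOX, LOXL1, LOXL2, LOXL3, LOXL4) start the crosslinks between chains. SPARC is a secreted protein that binds collagen. Endometriotic lesions are known for fibrosis, in which collagen is deposited around the lesion.

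RNA-seq counts came from 12Z, an immortalized human cell line from endometriotic epithelium. There were 5 groups of 3 libraries. The control group received non-targeting siRNA, the pBabe empty vector and vehicle (libraries numbered 4, 5 and 6). The 4 other groups all received siRNA against RSAD2, the gene for the interferon-induced protein viperin, and then either the empty vector or a pBabe plasmid carrying PIK3CA H1047R, an activating mutation of the PI3K catalytic subunit, each with vehicle or with 100 nM insulin (libraries 1, 2 and 3). The siRNA was given 24 hours before the plasmid, cells were starved of serum for 4 hours, and RNA was taken after 24 hours of insulin or vehicle. Insulin and H1047R can therefore be compared here only in cells that also carry RSAD2 siRNA, and H1047R was delivered by transient transfection on top of the cells' own PIK3CA.

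RSAD2 lay at 3.0 to 3.69 CPM (a gene's counts scaled to a common library size, with TMM factors) in the 3 non-targeting libraries and at 0.0768 to 1.41 CPM in the 12 libraries with RSAD2 siRNA. PIK3CA lay at 76.4 to 109 CPM in the 9 empty-vector libraries and at 160 to 223 CPM in the 6 H1047R libraries, so both targeted genes followed their labels. Libraries held 16126820 to 39671047 gene counts (median 24328753). Of the 12 epithelial markers examined, 7 had a mean of at least 1 TPM (a level corrected for gene length and scaled to the same total in every library), among them KRT8, KRT18 and KRT19, whereas EPCAM reached at most 1.05 TPM in any library, and all 17 stromal and mesenchymal markers had a mean of at least 1 TPM, including VIM. The libraries fell into 2 classes by the share of gene counts on the strand opposite to the RNA: 6.11% to 6.50% in all 6 H1047R libraries and in the empty-vector insulin library 3, against 5.77% to 5.89% in the other 8. H1047R against empty vector in vehicle therefore cannot be told apart from this class, whose origin the labels do not give. The siRNA comparison and insulin with H1047R each stayed within 1 class. The empty-vector insulin library 2 also stood apart from the other libraries of its group, with 12.5 and 13.6 units of chi-square per degree of freedom against at most 6.52 for any other pair within a group.

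The collagen system of 12Z cells was led by fibrillar chains. On the scale of TPM, which corrects for gene length, SPARC was the highest member (mean of 15 libraries 2584 TPM, rank 24 of the genes tested), followed by COL1A1 (1161 TPM, rank 56), the alpha 1 chain of type I collagen, and COL3A1 (1091 TPM, rank 63), the chain of type III collagen. The other chains among the 10 highest were COL5A2 (516 TPM), COL1A2 (214 TPM), COL6A1 (207 TPM), COL5A1 (169 TPM), COL6A2 (136 TPM), COL4A2 (94.3 TPM), COL12A1 (82.2 TPM) and COL4A5 (79.0 TPM). With all exons as the gene length, COL1A1 and COL3A1 exchanged places between groups. The ranges of COL1A2 (176 to 246 TPM) and COL6A1 (195 to 225 TPM) overlapped. In all, 13 of the 50 genes had a mean of at least 100 TPM, and 8 had a mean under 1 CPM. Together the 50 genes took 1.30% to 1.41% of all gene counts in every library, and the chains alone took 0.757% to 0.805% in the non-targeting libraries and 0.781% to 0.870% in the libraries with RSAD2 siRNA.

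Chains that must combine were not present at equal levels. COL6A1 and COL6A2, which assemble with another chain into the beaded filaments of type VI collagen, were both above 100 TPM, whereas that partner, COL6A3, had a mean of 0.686 TPM and 2.83 to 4.51 CPM. COL1A1 was 5.51 ± 0.127 times the level of COL1A2 on the TPM scale in the non-targeting libraries (SD, n = 3). In type I collagen, COL1A1 supplies a pair of chains for each COL1A2 chain. Among basement membrane chains, COL4A1 (76.8 TPM) and COL4A2 (94.3 TPM) were near each other when all exons gave the gene length. COL4A5 (79.0 TPM) was above COL4A6 (46.2 TPM). COL4A3 (0.0737 TPM) and COL4A4 (1.03 TPM), which join COL4A5 in kidney and lung, were near 0.

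The enzymes and chaperones spanned a wide range. P4HA1 (422 TPM) was the highest prolyl hydroxylase, with P4HA2 at 58.7 TPM and P4HA3 at 14.6 TPM. SERPINH1 lay at 413 TPM. Of the lysyl hydroxylases, PLOD1 (158 TPM) was above PLOD3 (77.4 TPM) and PLOD2 (75.2 TPM), which were near each other. LOX (286 TPM) and LOXL2 (226 TPM) were the leading lysyl oxidases, ahead of LOXL1 (35.4 TPM), LOXL4 (3.08 TPM) and LOXL3 (3.06 TPM). BMP1 was at 44 TPM and PCOLCE at 5.92 TPM. Levels depend on the gene length used: with the longest transcript in place of all exons, 7 of the 50 moved by more than 1.5-fold, among them COL4A2 (209 TPM), COL4A1 (127 TPM) and PLOD2 (138 TPM). On that length COL4A2 lay further above COL4A1, and PLOD2 lay above PLOD3 (115 TPM). COL1A1 and COL1A2 were then at 1136 and 244 TPM in the non-targeting libraries. COL3A1 was then at 1121 TPM in these libraries, so COL1A1 had the higher mean in every group and the exchange of places was absent.

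**Figure D1:**
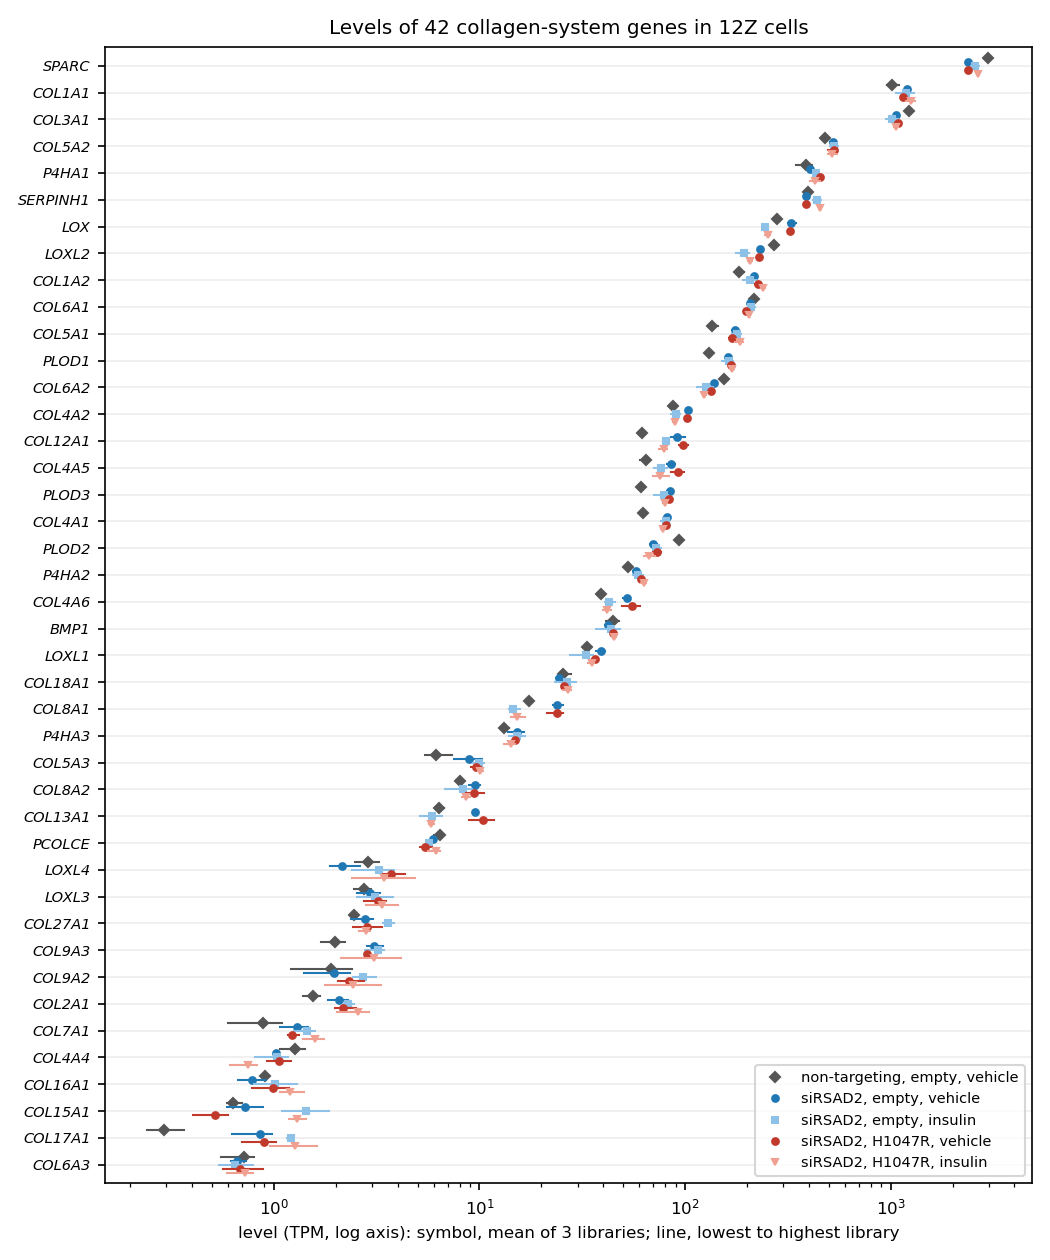
Levels of the 42 members with a mean of at least 1 CPM, in TPM on a log axis; each symbol is the mean of the 3 libraries of a group and each line runs from the lowest to the highest library. SPARC, COL1A1 and COL3A1 lead, and most members differ far more from each other than between groups.

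The type IV chains of basement membranes are arranged in head-to-head pairs. The pairs COL4A1 with COL4A2 and COL4A5 with COL4A6 recur in the results below, so sequence from between their starts is shown. COL4A3 (plus strand) and COL4A4 (minus strand) also lie head to head, on chromosome 2. Their levels were low, and their sequence is not shown. COL4A1 (minus strand) and COL4A2 (plus strand) start 126 bases apart in RefSeq. The stretch between them, chr13:110307158-110307283 (GRCh38.p14, plus strand), is 80.2% G and C and holds 1 CCAAT box and 1 GC box (GGGCGG), both searched on both strands and marked here in capitals.
COL4A1 and COL4A2: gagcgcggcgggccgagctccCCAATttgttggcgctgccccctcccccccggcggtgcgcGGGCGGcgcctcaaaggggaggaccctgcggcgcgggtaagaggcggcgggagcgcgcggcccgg
COL4A5 (plus strand) and COL4A6 (minus strand) start 379 bases apart on chromosome X. The 250 bases before COL4A5, chrX:108439588-108439837 (GRCh38.p14, plus strand), are 51.2% G and C and hold 2 CCAAT boxes, one on each strand, in capitals, and no GC box in this stretch. The rest of the interval, toward COL4A6, is not shown; GGGCGG occurs for COL4A6 only in the RefSeq window of another of its starts, outside this interval.
COL4A5: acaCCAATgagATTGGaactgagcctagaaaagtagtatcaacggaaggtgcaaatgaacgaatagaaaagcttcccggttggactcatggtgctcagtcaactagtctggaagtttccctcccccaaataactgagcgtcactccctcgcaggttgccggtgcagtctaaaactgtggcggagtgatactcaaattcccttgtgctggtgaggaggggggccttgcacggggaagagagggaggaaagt
LOX is shown as the lysyl oxidase with the largest change under insulin among those past the test. The 250 bases before its RefSeq start, chr5:122078260-122078509 (GRCh38.p14, minus strand), hold 4 matches to ACGTG, the core of the hypoxia response element, on either strand and in capitals.
LOX: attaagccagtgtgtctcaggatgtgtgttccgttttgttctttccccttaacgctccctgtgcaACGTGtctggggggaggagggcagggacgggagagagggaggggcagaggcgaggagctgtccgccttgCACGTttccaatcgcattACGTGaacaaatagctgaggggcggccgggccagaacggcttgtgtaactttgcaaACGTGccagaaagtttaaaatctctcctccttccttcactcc
These are matches of letters, not mapped binding sites. RefSeq promoter windows of 300 bases were at hand for 38 of the 50 genes (51 of 35116 windows). CCAAT on either strand was in 23.5% of the members' windows and in 32.0% of all windows, GGGCGG in 60.8% and 42.6%, and ACGTG in 25.5% and 18.5%. At least 4 ACGTG matches were in 0.669% of all 35116 windows.

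The first comparison asked what RSAD2 siRNA changed against non-targeting siRNA, both with empty vector and vehicle. Of the 50 genes, 16 were higher and 7 lower with RSAD2 siRNA (edgeR's quasi-likelihood test, Benjamini-Hochberg adjusted p under 0.05 over all genes tested), against a background of 9.82% higher and 9.72% lower among all 23184 genes. Chains accounted for 13 of the 16 rises and 4 of the 7 falls. The median log2 fold change was 0.16 over the 50 genes and 0.02 over all genes tested; among genes with a mean of at least 10 CPM it was 0.18 for 28 members, of which 14 were higher and 5 lower, and -0.03 for all 9593 genes, of which 1301 were higher and 1988 lower. The share of members called lower at this level was thus near that of all genes. As these are bulk libraries, fewer cells of a kind and less RNA per cell cannot be told apart. Over the same comparison 4 of 17 stromal and mesenchymal markers were higher and 8 lower, and 4 of 11 epithelial markers tested were lower and none higher. Of the others tested, 1 of 5 endothelial (KDR) and 1 of 3 immune markers (PTPRC) were higher. PTPRC was low, with a mean of 1.51 CPM, and its groups overlapped. The part of such shifts in the collagen results was not tested.

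Among the collagen classes, basement membrane and network chains had the largest share of rises, with 5 of 8 higher and none lower. COL4A1 read 234, 230 and 230 CPM in the non-targeting libraries and 301, 298 and 286 CPM with RSAD2 siRNA. COL4A6 read 89.99, 91.4 and 91.9 CPM against 122, 124 and 114 CPM. COL8A1, a chain of the short network collagen of type VIII, read 39.6, 41.5 and 42.9 CPM against 58.4, 55.4 and 52.8 CPM. In each of these the groups did not overlap. The log2 fold changes were 0.35 ± 0.04 for COL4A1 (SE, edgeR adjusted p = 3.98e-07), 0.40 ± 0.05 for COL4A6 (edgeR adjusted p = 2.44e-06) and 0.43 ± 0.07 for COL8A1 (edgeR adjusted p = 1.98e-05). COL4A5 rose by 0.36 ± 0.06 and COL4A2 by 0.22 ± 0.04 on the log2 scale, so all 4 chains of the head-to-head pairs shown above rose. The chains of the low pair, COL4A3 and COL4A4, did not pass the test. COL4A4 averaged 3.77 CPM in the non-targeting libraries and 2.98 CPM with RSAD2 siRNA, and COL4A3 averaged 0.269 and 0.405 CPM.

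Fibrillar chains divided, with 4 of 11 higher and 2 lower. COL1A1 read 2500, 2170 and 2220 CPM without RSAD2 siRNA and 2668, 2662 and 2655 CPM with it, a log2 fold change of 0.21 ± 0.05 (edgeR adjusted p = 0.00425). COL1A2 rose by the same 0.21 ± 0.04, COL5A1 by 0.33 ± 0.05 and COL5A3 by 0.50 ± 0.11. COL3A1 went the other way, from 2182, 2071 and 2061 CPM to 1789, 1749 and 1788 CPM, a fall of 1.19-fold (log2 -0.25 ± 0.04, edgeR adjusted p = 9.51e-06). COL5A2, the partner of COL5A1 in type V collagen, did not pass the test. The ratio of COL3A1 to COL1A1 (TPM) was 1.22 ± 0.0554 in the non-targeting libraries and 0.889 ± 0.0118 with RSAD2 siRNA (SD, n = 3 each), a log2 difference of -0.46. The exact two-sided permutation test over libraries gave p = 0.1, the smallest that 3 against 3 allows. The call for COL1A1 was lost without non-targeting library 5 (adjusted p = 0.0512).

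The remaining chains with the largest rises sat at cell surfaces or on fibrils. COL17A1, a transmembrane collagen of epithelial hemidesmosomes, was low throughout and read 0.429, 0.467 and 0.644 CPM in the non-targeting libraries (12, 13 and 15 counts) and 1.66, 1.69 and 1.08 CPM (48, 44 and 31 counts) with RSAD2 siRNA. Its rise of 2.88-fold (log2 1.53 ± 0.30, edgeR adjusted p = 3.34e-04) was the largest among members of at least 1 CPM. COL12A1, which decorates type I fibrils, read 305, 284 and 292 CPM against 463, 401 and 416 CPM, a rise of 1.45-fold (edgeR adjusted p = 2.28e-09). COL13A1, a transmembrane collagen of adhesion sites, read 18.0, 17.9 and 19.5 CPM against 27.7, 26.4 and 26.8 CPM, a rise of 1.46-fold (edgeR adjusted p = 2.92e-05). COL9A3 rose by 0.58 ± 0.19 on the log2 scale, a call that was lost without non-targeting library 5 or 6 or RSAD2 siRNA library 1 (adjusted p = 0.0607, 0.111 and 0.0976). None of COL6A1, COL6A3 and COL6A6 passed the test, and COL6A2 fell by 0.19 on the log2 scale. COL14A1 and COL11A1 were called lower at means of 0.889 and 0.732 CPM, with 4 to 49 counts per library. Both calls were lost without non-targeting library 4 (adjusted p = 0.0672 and 0.0897) or RSAD2 siRNA library 3 (adjusted p = 0.108 and 0.0854), that of COL14A1 also without non-targeting library 6 (adjusted p = 0.104), and that of COL11A1 also without non-targeting library 5 (adjusted p = 0.177) or RSAD2 siRNA library 2 (adjusted p = 0.0825).

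The lysyl hydroxylases split by member. PLOD2, which hydroxylates the telopeptide ends of collagen, read 327, 346 and 357 CPM in the non-targeting libraries and 260, 249 and 241 CPM with RSAD2 siRNA. PLOD3, which also glycosylates collagen, read 87.9, 91.5 and 83.8 CPM against 114, 120 and 120 CPM. PLOD2 thus fell by 0.46 ± 0.05 (edgeR adjusted p = 7.07e-08), whereas PLOD3 rose by 0.43 ± 0.05 (edgeR adjusted p = 2.00e-07) and PLOD1 by 0.26 ± 0.05 on the log2 scale. SPARC read 3569, 3424 and 3409 CPM against 2672, 2686 and 2781 CPM and fell by 0.35 ± 0.03 (edgeR adjusted p = 5.61e-09). Among lysyl oxidases, LOXL2 fell by 0.26 ± 0.04 and LOX rose by 0.18 ± 0.04. None of the 3 prolyl hydroxylases passed the test, nor did SERPINH1, BMP1 or PCOLCE.

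**Figure D2:**
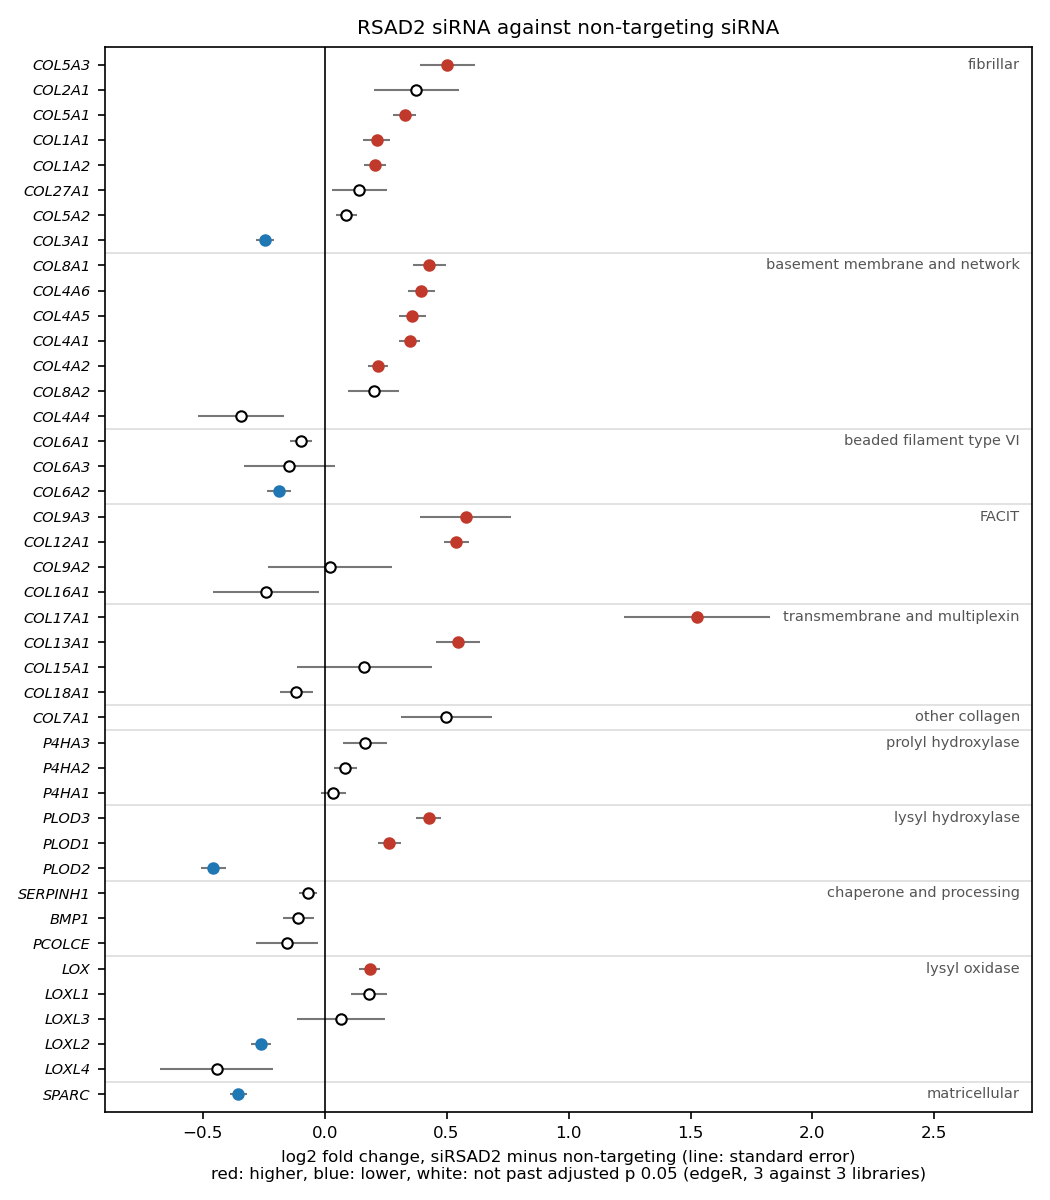
Log2 fold change of RSAD2 siRNA against non-targeting siRNA for the 42 members with a mean of at least 1 CPM, grouped by role; lines are standard errors, red and blue circles passed adjusted p 0.05 upward and downward, and white circles did not pass. Basement membrane and network chains lie mostly to the right of 0, COL3A1, PLOD2 and SPARC to the left.

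Other genes of the pathway were taken from a separate list of collagen partners, of which 51 were tested. With RSAD2 siRNA 17 were higher and 6 lower, against backgrounds of 9.82% and 9.72% of all genes tested. Modifying and folding proteins counted 6 higher of 13 and none lower, including the prolyl 3-hydroxylase P3H2 (log2 0.76 ± 0.06). The smallest p-values among rises were those of the thrombospondin THBS2 (0.53 ± 0.04), P3H2 and the collagen-binding integrin chain ITGA2 (0.63 ± 0.05). Those among falls were the fibril-binding proteoglycans LUM (-0.67 ± 0.05) and DCN (-0.80 ± 0.08) and the collagen receptor DDR2 (-0.30 ± 0.05).

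The next comparisons asked what 100 nM insulin changed in RSAD2 siRNA cells, once with empty vector and once with H1047R. With empty vector 3 of the 50 genes were higher and 11 lower, against backgrounds of 2.1% and 4.19% of all genes tested. With H1047R 3 were higher and 8 lower, against backgrounds of 0.483% and 1.99%. The 8 genes called lower with H1047R were also called lower with empty vector (100% of the 8 and 72.7% of the 11). They were the chains COL4A2, COL4A5, COL4A6, COL8A1, COL12A1 and COL13A1 and the lysyl oxidases LOX and LOXL2. COL15A1 and SERPINH1 were called higher with both vectors (66.7% of the 3 with each). The comparisons with the 2 vectors share no library. Matching shares of genes called with both vectors over all genes tested are not given here. The overlap is therefore not read as particular to the collagen genes. The median log2 fold change of the 50 genes was -0.03 with empty vector and 0.01 with H1047R, beside 0.00 for all genes tested with each vector.

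Among the genes called lower, COL8A1 and COL13A1 fell most with each vector. COL8A1 read 58.4, 55.4 and 52.8 CPM with empty vector and vehicle and 31.1, 32.2 and 34.1 CPM with insulin, and 54.3, 48.0 and 56.9 CPM with H1047R and vehicle against 32.1 to 36.7 CPM with insulin. It was 1.71-fold lower with empty vector (log2 -0.78 ± 0.07, edgeR adjusted p = 4.13e-09) and 1.56-fold lower with H1047R (-0.64 ± 0.07, edgeR adjusted p = 3.08e-07). Every insulin library was below every vehicle library and also below the 3 non-targeting libraries. COL13A1 read 27.7, 26.4 and 26.8 CPM against 16.0, 18.6 and 13.6 CPM with empty vector, and 31.2, 24.7 and 29.0 CPM against 15.7, 15.9 and 15.4 CPM with H1047R. It was 1.67-fold and 1.80-fold lower (edgeR adjusted p = 1.78e-06 and 2.74e-07). For both genes, the insulin and vehicle groups did not overlap with either vector.

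Of the 8 basement membrane and network chains, the same 4 genes were lower with each vector. COL4A6 read 122, 124 and 114 CPM with empty vector and vehicle and 89.9, 96.8 and 96.8 CPM with insulin, and 130, 111 and 123 CPM with H1047R and vehicle against 88.8, 93.3 and 89.3 CPM with insulin. It fell by 0.35 ± 0.06 (edgeR adjusted p = 8.85e-05) and by 0.42 ± 0.06 (edgeR adjusted p = 6.34e-06) on the log2 scale. COL4A2 read 507, 486 and 485 CPM against 434, 401 and 400 CPM with empty vector, and 464, 462 and 465 CPM against 405, 396 and 405 CPM with H1047R. It fell by 0.26 ± 0.04 (edgeR adjusted p = 7.71e-05) and by 0.21 ± 0.04 (edgeR adjusted p = 0.00222). COL4A5 fell by 0.21 ± 0.06 and by 0.31 ± 0.06, the first call being lost without empty-vector vehicle library 1 or insulin library 1 (adjusted p = 0.0679 and 0.0995). COL4A1, which lies head to head with COL4A2, did not pass the test with either vector (log2 -0.06 with each). The 95% intervals of its log2 fold change were -0.15 to 0.02 with empty vector and -0.15 to 0.02 with H1047R.

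The unequal movement of these partners showed in their ratios. COL4A1 over COL4A2 (TPM) was 0.774 to 0.805 in vehicle and 0.805 to 0.977 with insulin in empty-vector cells, and 0.789 to 0.797 against 0.875 to 0.879 in H1047R cells. Averaged over both vectors it rose by 0.17 on the log2 scale. COL4A5 over COL4A6 rose by 0.12 and COL6A1 over COL6A2 by 0.16. For each of the 3 ratios the exact two-sided permutation test over libraries within vectors gave p = 0.005, the smallest it allows, and 0.0225 after Benjamini-Hochberg adjustment over the 18 ratio tests made (6 ratios in 3 comparisons). The pairs COL4A5 with COL4A6 and COL3A1 with COL1A1 were added after values had been seen. COL1A1 over COL1A2 and COL5A1 over COL5A2 did not pass for insulin (exact permutation p = 0.235 and 0.155).

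**Figure D3:**
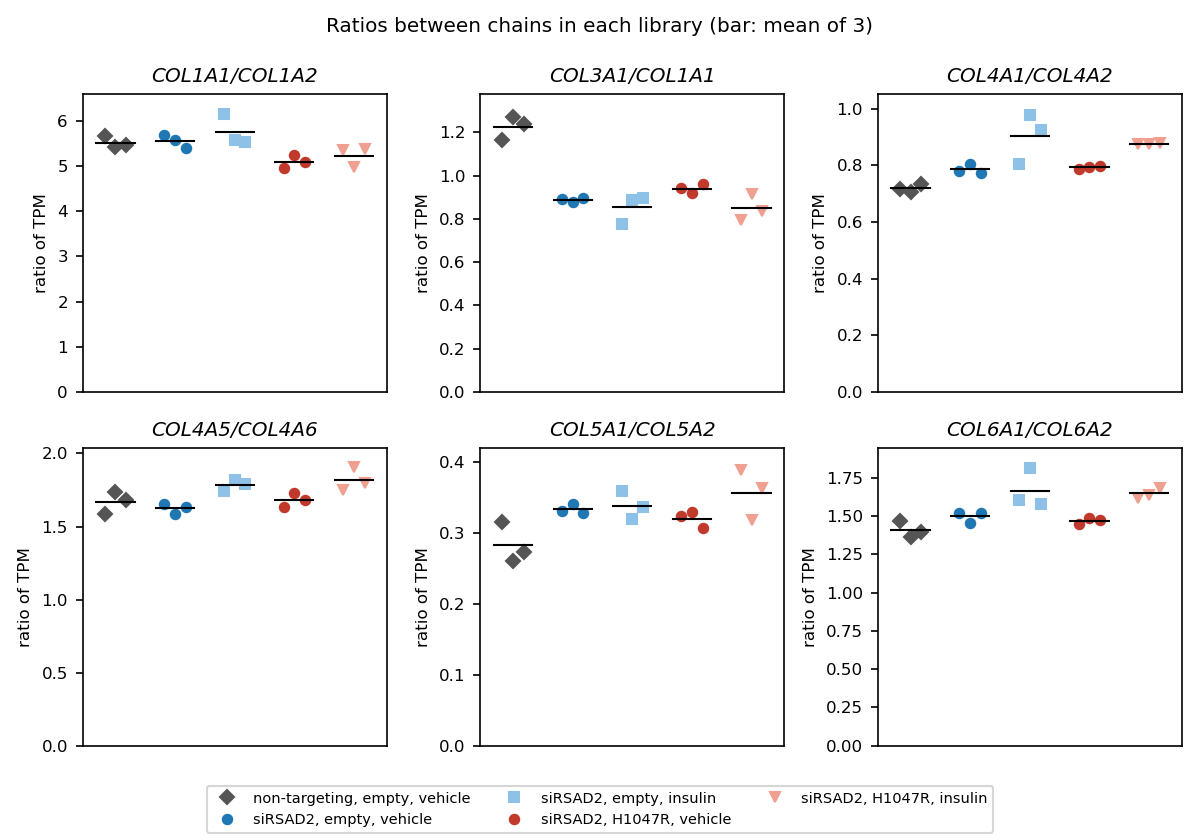
Ratio of TPM between 2 collagen chains in each library, 5 groups of 3; points are libraries and bars are group means, on axes from 0. COL3A1 over COL1A1 is highest in the non-targeting libraries, and COL4A1 over COL4A2, COL4A5 over COL4A6 and COL6A1 over COL6A2 are higher with insulin with both vectors.

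Lysyl oxidases were the enzymes that fell. LOX read 472, 442 and 436 CPM with empty vector and vehicle and 322, 337 and 315 CPM with insulin, and 414, 431 and 444 CPM against 329, 334 and 330 CPM with H1047R. It was 1.39-fold lower with empty vector (log2 -0.47 ± 0.04, edgeR adjusted p = 3.91e-09) and 1.30-fold lower with H1047R (-0.38 ± 0.04, edgeR adjusted p = 5.01e-07). The insulin libraries lay below the 394 to 400 CPM of the non-targeting libraries. LOXL2 read 334, 346 and 346 CPM against 291, 258 and 274 CPM with empty vector (-0.32 ± 0.04) and fell by 0.16 ± 0.04 with H1047R. The latter call was lost in 14 of 24 alternatives, among them leaving out any of the 6 H1047R libraries, non-targeting library 5 or 6, or any empty-vector vehicle library (adjusted p between 0.0502 and 0.225). LOXL1 fell with empty vector by 0.30 ± 0.07 and was at -0.07 with H1047R; the call was lost without empty-vector vehicle library 3 or insulin library 2 (adjusted p = 0.0578 and 0.0948). LOXL3 and LOXL4 did not pass the test with either vector.

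COL12A1 read 463, 401 and 416 CPM against 372, 364 and 355 CPM with empty vector, and 451, 430 and 420 CPM against 365, 325 and 359 CPM with H1047R. It fell by 0.23 ± 0.05 (edgeR adjusted p = 0.00428) and by 0.31 ± 0.05 (edgeR adjusted p = 1.84e-04). With empty vector COL6A2 and COL3A1 were also called lower, by 1.14-fold and 1.09-fold. The COL6A2 call was lost without vehicle library 2 or insulin library 2 (adjusted p = 0.0801 and 0.0966), and the COL3A1 call without vehicle library 1 or 3 or insulin library 2 (adjusted p = 0.0860, 0.121 and 0.0981). COL1A1 and COL1A2 did not pass with either vector: COL1A1 was at -0.06 with empty vector and 0.12 with H1047R, and COL1A2 at -0.11 and 0.08.

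COL15A1 and SERPINH1 moved upward. COL15A1, which lies in basement membranes and carries an endostatin-like fragment, was low and read 1.14, 1.46 and 0.972 CPM against 2.20, 3.01 and 1.67 CPM with empty vector, and 0.624, 0.960 and 0.862 CPM against 1.89, 2.19 and 2.00 CPM with H1047R. It was 1.94-fold higher (edgeR adjusted p = 0.0220) and 2.44-fold higher (edgeR adjusted p = 0.00486), on 15 to 70 counts per library. The first call was lost without vehicle library 1 or 3 or insulin library 2 (adjusted p = 0.0604, 0.0967 and 0.186) and the second without H1047R vehicle library 1 (adjusted p = 0.0531). SERPINH1 read 585, 574 and 574 CPM with H1047R and vehicle and 679, 659 and 675 CPM with insulin, a rise of 1.16-fold (edgeR adjusted p = 4.60e-04). With empty vector it read 582, 609 and 603 CPM against 666, 642 and 658 CPM, a rise of 1.096-fold (edgeR adjusted p = 0.0307). That call was lost in 16 of 24 alternatives, among them leaving out any empty-vector vehicle library, insulin library 1 or 3, non-targeting library 6, any H1047R vehicle library or H1047R insulin library 1 or 2 (adjusted p between 0.0506 and 0.142). SPARC rose with H1047R by 0.15 ± 0.03 (edgeR adjusted p = 0.0156) and was at 0.06 with empty vector; the call was lost without H1047R vehicle library 1 or 2 or insulin library 1 or 3 (adjusted p between 0.0567 and 0.121). COL14A1, at a mean of 0.889 CPM, was called higher with empty vector on 4 to 30 counts, a call lost without vehicle library 3 or insulin library 3 (adjusted p = 0.119 and 0.115).

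**Figure D4:**
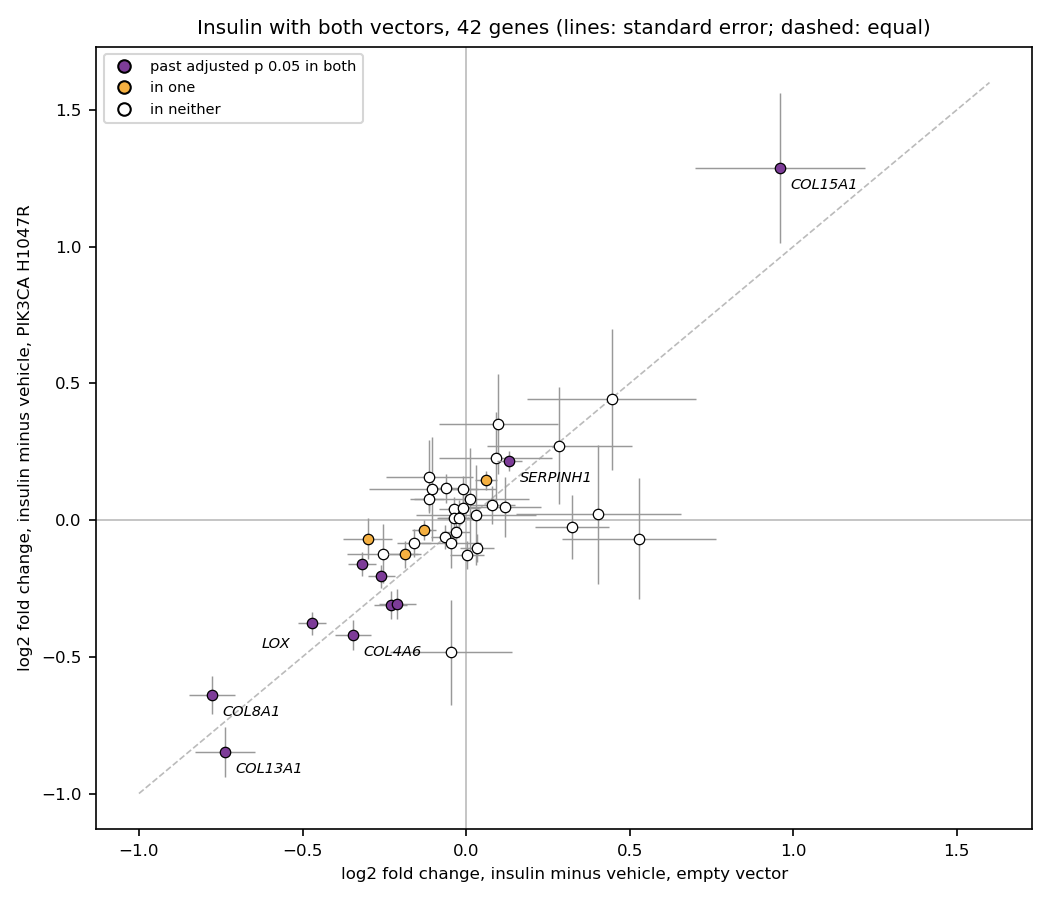
Log2 fold change of insulin against vehicle with empty vector (horizontal axis) and with PIK3CA H1047R (vertical axis) for the 42 members with a mean of at least 1 CPM; lines are standard errors, and the dashed line marks equal change. COL8A1, COL13A1, LOX and COL4A6 lie at the lower left and COL15A1 at the upper right.

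Genes that rose with RSAD2 siRNA and fell with insulin share the RSAD2 siRNA, empty-vector, vehicle libraries between the comparisons, so the values are given side by side. COL8A1 was at 0.43 with the siRNA, -0.78 with insulin and empty vector and -0.64 with insulin and H1047R. COL13A1 was at 0.55, -0.74 and -0.85, COL4A6 at 0.40, -0.35 and -0.42, COL12A1 at 0.54, -0.23 and -0.31, and LOX at 0.18, -0.47 and -0.38. COL4A2 and COL4A5 were also called higher with the siRNA and lower with insulin with both vectors, with values given above. The H1047R comparison uses none of the shared libraries.

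**Figure D5:**
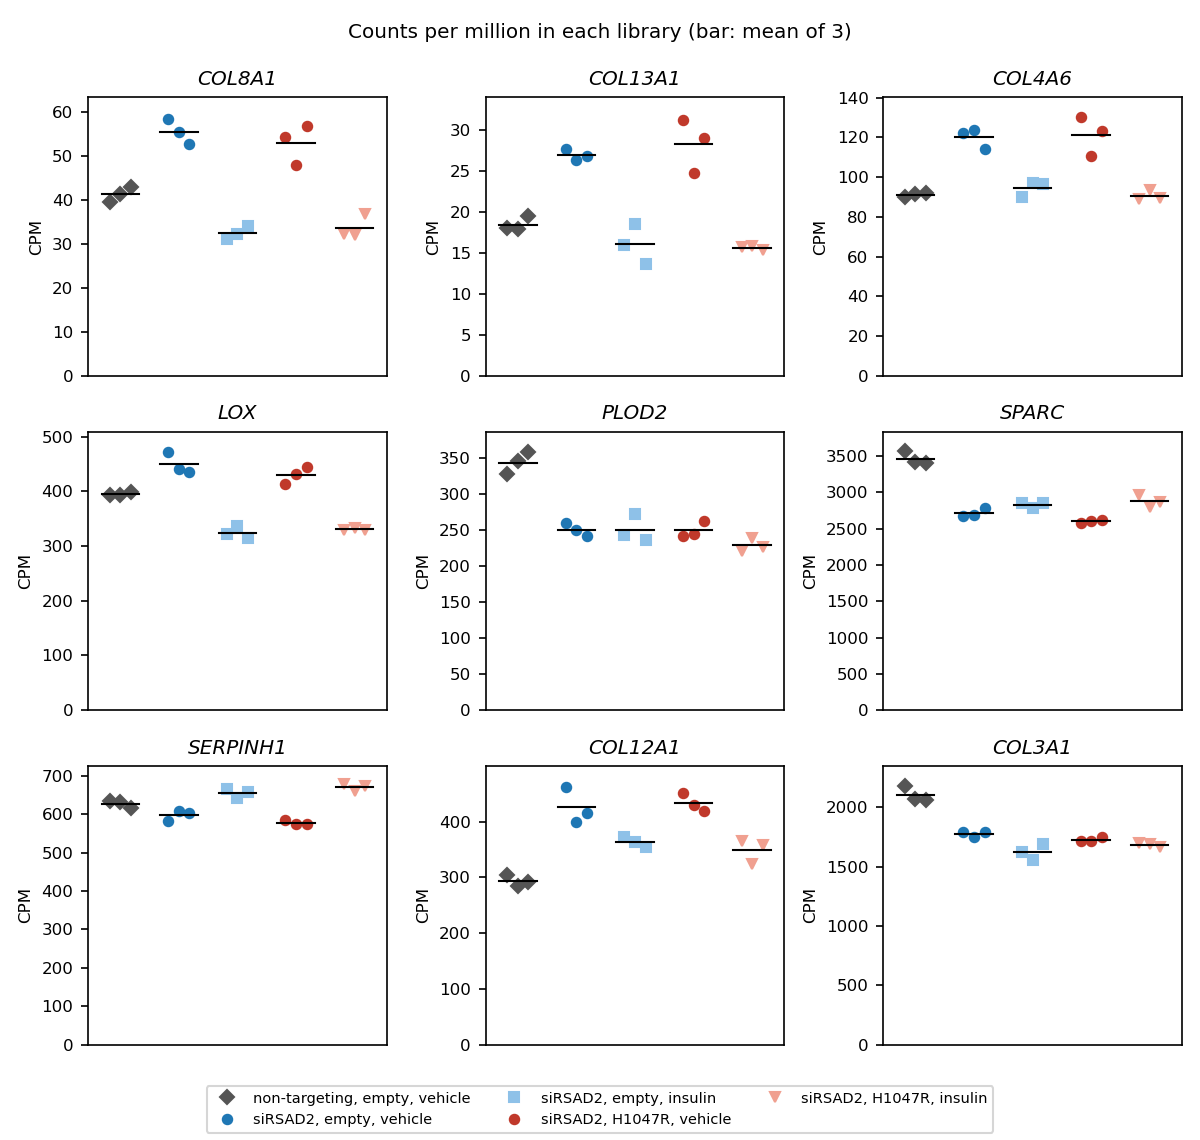
CPM of 9 members in each library, 5 groups of 3; points are libraries and bars are group means, on axes from 0. COL8A1, COL13A1, COL4A6, COL12A1 and LOX are lower with insulin with both vectors, SERPINH1 is higher, and PLOD2, SPARC and COL3A1 are highest in the non-targeting libraries.

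Among the 51 partners tested, 2 were higher and 12 lower with insulin and empty vector, against 2.1% and 4.19% of all genes tested. With insulin and H1047R 1 was higher and 6 lower, against 0.483% and 1.99%. ITGA2 fell by 0.56 ± 0.05 and by 0.50 ± 0.05, THBS2 by 0.34 ± 0.04 and by 0.26 ± 0.04, and FN1 (fibronectin) by 0.32 ± 0.04 with each. POSTN (periostin) rose by 0.20 ± 0.05 and by 0.28 ± 0.06, and DDR2 rose by 0.21 ± 0.05 with empty vector. Of the 17 stromal and mesenchymal markers, 5 were lower with each vector, and 1, ACTA2, was higher with empty vector (log2 0.39). NT5E, MME, VIM and FN1, which is also counted among the partners, were lower with both vectors. ZEB2 was lower with empty vector only and PDGFRA with H1047R only. With empty vector 1 of 11 epithelial markers (KRT18), 1 of 5 endothelial (KDR) and 1 of 3 immune markers (PTPRC) tested were also lower. The groups of PTPRC again overlapped. With H1047R no epithelial, endothelial or immune marker was called in either direction. The summed level of the stromal and mesenchymal markers was 3271 to 3313 TPM in vehicle and 2701 to 2967 TPM with insulin in empty-vector cells, and 3364 to 3452 TPM against 2902 to 2976 TPM in H1047R cells. Its part in the collagen results was not tested.

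The last comparisons asked what H1047R changed and whether it altered the response to insulin. Against empty vector in vehicle, none of the 50 genes passed the test, against backgrounds of 0.621% higher and 0.742% lower. The smallest adjusted p was 0.128 (edgeR). An unadjusted p under 0.05 was reached by 8 of the 50 and by 2891 of all 23184 genes tested. DESeq2 called 1 member, COL6A1, lower. With insulin again none passed, against backgrounds of 0.22% and 0.0647%. The smallest adjusted p was 0.0553 (edgeR), that of COL1A2. Here 5 of the 50 and 2440 of all 23184 genes had an unadjusted p under 0.05. DESeq2 called COL1A2 higher. COL1A2 read 545, 506 and 547 CPM with empty vector and insulin and 640, 592 and 592 CPM with H1047R and insulin, a log2 fold change of 0.19 ± 0.05 (95% interval 0.10 to 0.28). These groups did not overlap. COL1A1 was at -0.12 ± 0.05 with H1047R in vehicle and did not pass.

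COL1A1 over COL1A2 (TPM) was lower with H1047R, at 5.10 ± 0.140 against 5.55 ± 0.139 in vehicle and 5.23 ± 0.222 against 5.75 ± 0.349 with insulin (SD, n = 3 each). The log2 difference averaged over both treatments was -0.13 (exact two-sided permutation test within treatments p = 0.005, the smallest it allows, 0.0225 adjusted over the 18 ratio tests). All 6 H1047R libraries belong to the class with over 6% of counts on the opposite strand, and the part of that class in this ratio was not tested.

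No gene of the 23184 tested passed the interaction of insulin and H1047R (backgrounds of 0% higher and 0% lower), with 1611 at an unadjusted p under 0.05, 6 of them among the 50 genes, whose smallest adjusted p was 0.687 (edgeR). DESeq2 called none of the 50. The interaction, as log2 fold change with H1047R minus that with empty vector, was 0.14 for COL8A1 (95% interval -0.06 to 0.33), -0.11 for COL13A1 (-0.37 to 0.14), 0.09 for LOX (-0.02 to 0.21) and -0.08 for COL4A6 (-0.23 to 0.08). Of the 10 genes called in the same direction with both vectors, all except LOXL2 (0.16, interval 0.04 to 0.28, unadjusted for the number of genes) had an interval that included 0. Of the 51 partners, ITGA2 was higher with H1047R in vehicle (0.20 ± 0.05) and with insulin (0.26 ± 0.05), and POSTN (-0.29 ± 0.05) and the transcription factor gene CREB3L1 (-0.27 ± 0.07) were lower in vehicle.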

How the data were processed

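RNA-seq was performed on 12Z cells in 5 groups of 3 libraries. The deposited tables give unstranded, forward and reverse-stranded counts per gene for each library, made by the authors by trimming reads (Trim Galore, cutadapt) and aligning them to hg38 with STAR's gene counting, and no normalization was applied to them; the aligner's versions are not given in the sources used here, and the study's methods name an annotation release with a mouse release number. Reverse-stranded counts were used, and the 4 summary lines per library (unmapped, multimapping, outside genes and ambiguous, 22.2% to 30.5% of read pairs) were left out of library sizes. Reads that map to several places were therefore not counted, which lowers genes with near-identical copies. Precision at low levels is limited by counting.

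Of 60617 gene IDs, 60357 matched GENCODE 44, which gave symbols, coordinates and exon lengths. The 23184 genes that averaged 1 count or more per library were fitted in R 4.3.3 with edgeR 4.0.16 (TMM, 1 term per group, all 15 libraries, quasi-likelihood tests), with Benjamini-Hochberg adjustment over all of them and a threshold of 0.05 (common biological coefficient of variation 0.0571, 10 residual degrees of freedom). The fit was tested on simulated data with 200 changed genes. TPM used the union of exons. Ratios were compared by exact permutation over libraries (Python 3.11.15), and promoter sequences were read from RefSeq (GRCh38.p14). Alternatives were DESeq2 1.42.0, RLE size factors, edgeR's own filter, no filter, a threshold of 0.001, unstranded counts, only the compared groups, a replicate block, each library left out, and, added after the data had been seen, a term for the forward-strand class. Deviations of same-numbered libraries from their group means correlated weakly (-0.127 to 0.156), so the numbers were not used as pairs. Between the insulin groups of both vectors these correlations were all positive (0.156, 0.138 and 0.0871). Libraries with different numbers were not correlated for comparison, so pairing was not excluded. The study's methods describe the 3 libraries of a condition as independent experiments, whereas the labels do not say whether they came from separate cultures; p-values measure the spread between these libraries.

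The members and gene lists were chosen with earlier results of these data known. Named with values were the main trimer chains and all enzymes, the 10 highest chains, per comparison the 6 largest rises and falls of at least 1 CPM without overlap of groups, the largest change under 1 CPM, and the 3 partners with the smallest p in each direction; other named genes were chosen after their values were seen.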

Additional observations from a re-analysis of the deposited data

Results flagged for a closer look

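COL1A2 was flagged because its insulin response went down with empty vector and up with H1047R: with empty vector the insulin libraries (545, 506 and 547 CPM) all lay below the vehicle libraries (564, 574 and 590 CPM), and with H1047R they (640, 592 and 592 CPM) all lay above them (585, 570 and 574 CPM). The log2 fold changes were -0.11 and 0.08, and neither passed the test alone. The difference of 0.19 on the log2 scale was tested as the interaction of insulin and H1047R and did not pass (edgeR adjusted p = 0.687, unadjusted p = 0.00540, 95% interval 0.07 to 0.32).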

How the results depend on the processing

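The 50 genes gave 48 calls over the comparisons. Under up to 24 alternatives each, 28 were kept in every alternative, 20 were lost in at least one, and none reversed. The calls for COL8A1, COL13A1, COL4A6 and LOX with insulin, with each vector, and those for COL4A1, COL4A6, COL8A1, COL12A1, COL13A1, COL17A1, COL3A1, PLOD2, PLOD3 and SPARC with RSAD2 siRNA were among the 28. The term for the forward-strand class, chosen after seeing the data, took the calls for COL6A2, SERPINH1 and COL14A1 from the insulin comparison with empty vector; it rests on empty-vector insulin library 3, the only library of its class without H1047R.

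At an adjusted p of 0.001, the 7 genes lower with RSAD2 siRNA became 4, the 3 higher and 11 lower with insulin and empty vector became 0 and 6, and the 3 higher with insulin and H1047R became 1. The calls for COL1A1, COL1A2, COL5A3, COL9A3 and LOX as higher with RSAD2 siRNA were also lost at this threshold. So were those for COL4A2 and LOXL2 as lower with insulin and H1047R. Fitting the compared groups only gave 0 higher and 6 lower for insulin with empty vector, and 2 lower (COL1A1 and COL6A1) for H1047R in vehicle. The forward-strand term left 1 gene higher with insulin and empty vector. For H1047R in vehicle, having no filter gave 1 higher (LOXL4) and DESeq2 gave 1 lower (COL6A1). For H1047R with insulin, DESeq2, having no filter and the replicate block each gave 1 higher (COL1A2), and the block changed no other call of a member. No paired analysis was possible for the siRNA comparison because the non-targeting libraries carry other numbers. With a library left out, counts ranged from 0 to 3 higher for insulin with empty vector (0 without vehicle library 3, 1 without vehicle library 1 or insulin library 3), from 1 to 3 higher for insulin with H1047R (1 without H1047R vehicle library 1), from 0 to 1 lower for H1047R in vehicle (1, COL6A1, without empty-vector insulin library 2) and from 0 to 1 higher for H1047R with insulin (1, COL1A2, without non-targeting library 4 or empty-vector insulin library 1 or 3). Without the empty-vector insulin library 2, insulin with empty vector gave 2 higher and 8 lower. Matching shares of all genes tested under these alternatives are not given here. The backgrounds given with the comparisons belong to the main edgeR calls only. Whether the counts of members changed more or less than those of all genes was therefore not tested. Unstranded counts moved 1 of the 18 ratio results past its threshold before adjustment (COL3A1 over COL1A1 with insulin).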
